A study of Schizosaccharomyces pombe with 30 samples.

Results

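Introns that are the sole intron of their gene were followed in Schizosaccharomyces pombe, the fission yeast, on 30 splicing arrays in 10 groups of 3. A gene was taken as single-intron when the highest intron number on the array was 1 and an exon feature was present, and no measured value entered that choice. This gave 1039 introns of 4821 with an exon feature in their gene, or 21.6%, and a further 9 single introns had no exon feature and were left out. The groups were pht1∆ at 16 °C and at 30 °C, swr1∆ at 30 °C and at 37 °C, pht1∆ usp107DAmP and usp107DAmP at 30 °C, pht1∆ prp16DAmP and prp16DAmP at 16 °C, and swr1∆ prp16DAmP and prp16DAmP at 37 °C. Mutant RNA carried Cy5 and wild-type RNA Cy3 on every array, with no dye swap, and the wild-type cultures had the same temperature regime as the mutants. Cells grew at 30 °C and were shifted to 16 °C for 9 hours or to 37 °C for 2 hours where those temperatures are named. The labels do not say whether the 3 arrays of a group came from separate cultures, so that p-values measure the spread between arrays, which may be technical.

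Each deposited value is a log ratio of mutant over wild-type RNA for an exon, an intron or an exon-exon junction, read here as log2. No source used here states the log base, and natural logarithms would make every log2 value larger by a constant factor. The splicing index subtracts the exon log ratio of a gene from its intron log ratio. It is above 0 when intron RNA gained on exon RNA, whether the intron feature was higher or the exon feature was lower. An index was called when the adjusted p from limma was under 0.05 after Benjamini-Hochberg adjustment over all 4821 introns. The spread of each intron was estimated once for all groups, although the SD over all features of an array ran from 0.131 to 0.464. Errors after ± are limma's standard errors unless SD is written, and every group has n = 3 arrays.

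An intron is marked by a 5′ splice site that base-pairs with the U1 snRNP, by a branch site recognised before U2 snRNP joins, and by a terminal AG, and it is removed in 2 transesterification steps. Fission yeast introns are short and are thought to be recognised across the intron rather than across the exon. Pht1 is the H2A.Z variant of histone H2A, found in nucleosomes near the start of genes, and Swr1 is the ATPase of the complex that deposits it. Usp107 belongs to the U1 snRNP, and Prp16 is an ATPase that remodels the spliceosome between the steps. DAmP alleles disturb the 3′ end of an mRNA to lower its abundance.

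The labels were set against the exon feature of the altered genes. The pht1 exon feature was lower in pht1∆ at 16 °C (−0.74 ± 0.098, adjusted p = 5.31e-06) and at 30 °C (−0.65 ± 0.098, adjusted p = 2.64e-05). In the libraries labelled pht1∆ usp107DAmP and pht1∆ prp16DAmP it was 0.02 and −0.03 and was not called. In pht1∆ usp107DAmP, whose label names no prp16 allele, the prp16 feature was called lower (−0.51 ± 0.20, adjusted p = 0.0395 by limma). It was −0.15 in prp16DAmP and 0.28 in pht1∆ prp16DAmP at 16 °C. At 37 °C it was −0.19 in prp16DAmP and −0.01 in swr1∆ prp16DAmP. The swr1, usp107 and prp16 features were not called in the groups named for them. Where these probes lie relative to the deletions is not known here, and those groups are named by their labels only. Intron features that share an identical value with others of the array made up 28.9% of the single introns on pht1∆ 30 °C replicate 1 and 18.4% on swr1∆ 30 °C replicate 1, against 0.193 to 5.49% on the other arrays.

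Of the 1039 introns, 953 lie in genes with exactly 1 coding intron and no UTR intron in the RefSeq annotation of assembly ASM294v3 and could be placed there, on chromosomes I (430), II (359) and III (164). The other 86 went against the single-intron label or were unmatched, with 39 genes annotated with more coding introns, 17 with none, 21 with an added UTR intron and 9 without a match. Placed single introns had a median length of 67 bases (35 to 717), against 56 bases over all 5023 annotated coding introns, and a GC content of 29.0% against 28.9%. The 5′ splice site GTAAGT occurred in 35.2% of them and GTATGT in 24.6%, against 27.4% and 19.99% of all annotated coding introns. A branch word of the form CTNAN, with a purine at the first open base and a pyrimidine at the last, searched on the transcribed strand in the last 60 bases, was present in 79.2% against 75.5%. The distance to the 3′ end, counted from the base after the branch A of the best match, had a median of 11 bases in both sets.

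The introns below are shown because their indices were among the highest in pht1∆, in swr1∆ or in both. Each sequence runs 5′ to 3′ on the transcribed strand of ASM294v3, with the first 6 bases, the best branch match and the terminal AG in capitals. The bud20, SPAC186.08c and rpc82 introns were high in pht1∆ at both temperatures and in swr1∆ at 30 °C, and tad3 followed them at a lower level. SPAC186.08c and rpc82 were called higher in those 3 groups only, and not in the other groups with pht1∆ or swr1∆ in their label. The rpl2501, mud1, SPAC9E9.06c and pcf11 introns were high in pht1∆ at 16 °C through the intron feature, and mfm2 had the highest index through its exon.
bud20, chrI:4904041-4904099, minus strand, 59 bases: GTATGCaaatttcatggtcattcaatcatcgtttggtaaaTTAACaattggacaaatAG
SPAC186.08c, chrI:5549820-5549955, minus strand, 136 bases: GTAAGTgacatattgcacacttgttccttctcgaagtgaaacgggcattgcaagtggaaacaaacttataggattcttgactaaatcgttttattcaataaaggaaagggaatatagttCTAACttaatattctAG
rpc82, chrI:3286668-3286746, plus strand, 79 bases: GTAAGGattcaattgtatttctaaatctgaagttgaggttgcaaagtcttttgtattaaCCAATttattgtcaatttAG
tad3, chrI:1615337-1615379, minus strand, 43 bases: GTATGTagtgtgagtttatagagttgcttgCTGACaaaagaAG
rpl2501, chrII:413654-413893, plus strand, 240 bases: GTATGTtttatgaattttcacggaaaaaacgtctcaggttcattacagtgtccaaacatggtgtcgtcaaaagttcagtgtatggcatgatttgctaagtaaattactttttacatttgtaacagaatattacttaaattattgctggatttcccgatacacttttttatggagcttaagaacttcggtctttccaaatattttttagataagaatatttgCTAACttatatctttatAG
mud1, chrI:1139334-1139447, plus strand, 114 bases: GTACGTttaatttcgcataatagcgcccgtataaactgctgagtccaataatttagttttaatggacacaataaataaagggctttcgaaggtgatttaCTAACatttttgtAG
SPAC9E9.06c, chrI:4447342-4447399, minus strand, 58 bases: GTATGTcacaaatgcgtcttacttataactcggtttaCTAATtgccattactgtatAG
pcf11, chrI:2258624-2258671, minus strand, 48 bases: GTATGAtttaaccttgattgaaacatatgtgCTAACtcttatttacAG
mfm2, chrI:2913021-2913062, minus strand, 42 bases: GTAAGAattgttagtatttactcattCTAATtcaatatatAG
The branch words of bud20 and rpc82 matched 4 of 5 bases of a word searched, and those of the other 7 introns matched all 5. The 9 introns carry 7 different 5′ splice sites.

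In pht1∆ at 16 °C, 286 of 1039 single introns had a higher index and 41 a lower one, against 21.9% higher and 3.88% lower over all 4821 introns (25.8% in either direction). The shares in single introns were 27.5% and 3.95%. Most of the higher ones had more intron RNA: the intron feature was called higher in 211 of the 286, the exon feature was called lower in 77, and the intron feature lay farther from 0 than the exon feature in 219. Their median intron feature was 0.46 and their median exon feature −0.11. Among 406 single-intron genes whose exon feature stayed within 0.1 of 0, 97 introns had a higher index and 5 a lower one. With the junction feature in place of the exon feature, the index was also called higher in 231 of the 273 higher introns that have one. The count of calls fell to 171 without replicate 1 and to 217 without replicate 3, from 327 in all.

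**Figure D1:**
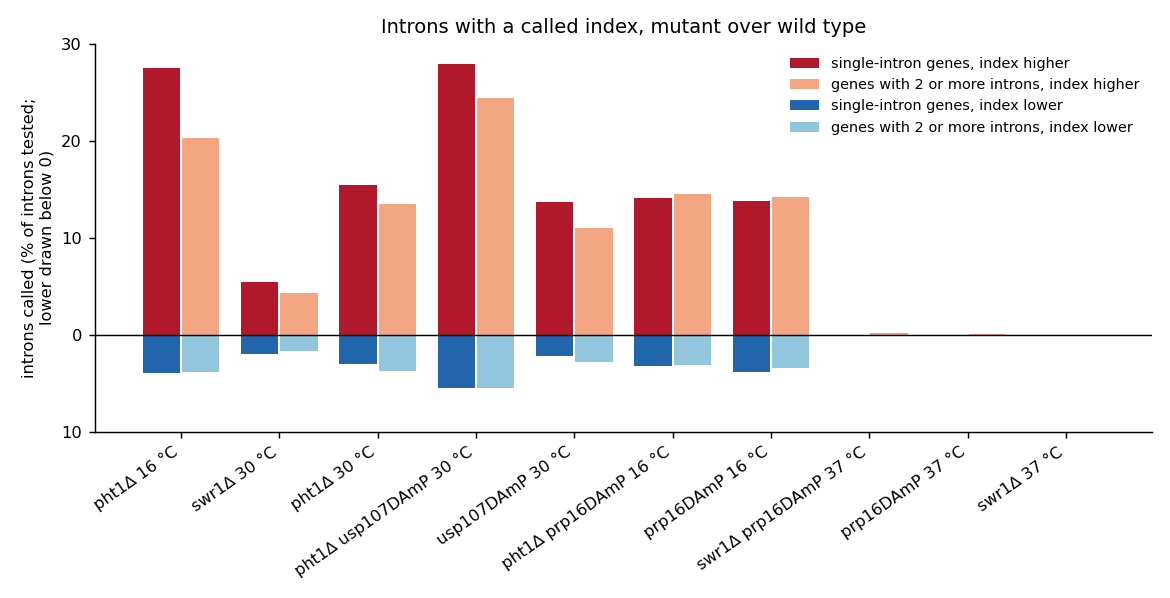
Share of introns with a called index in each group, as a percentage of introns tested, with higher indices above 0 and lower ones below it. Dark bars are the 1039 single introns and light bars the 3782 introns of genes with 2 or more introns. In pht1∆ at 16 °C the bars reach 27.5% and 20.3%.

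**Figure D2:**
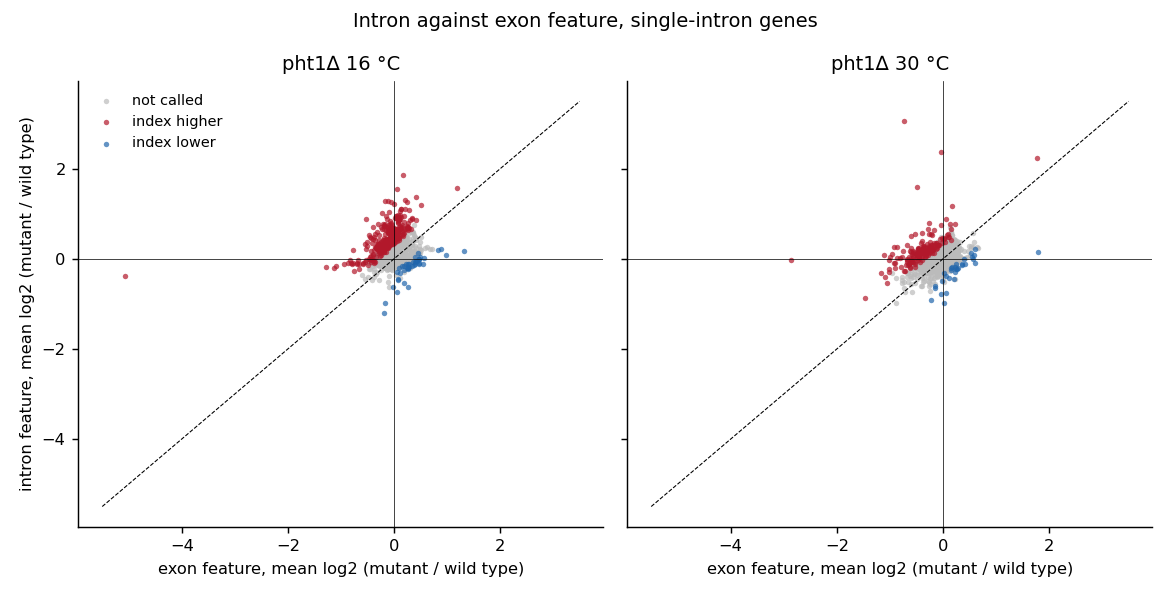
Mean intron feature against mean exon feature of the 1039 single-intron genes, as log2 of mutant over wild type, in pht1∆ at 16 °C (left) and 30 °C (right). Red and blue points have a called higher or lower index and the dashed line marks an index of 0. At 16 °C most red points lie above 0 on the intron axis, with a median of 0.46, and at 30 °C many lie to the left of 0 on the exon axis, with a median of −0.41.

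The intron of rpl2501, encoding a 60S ribosomal protein, had intron log ratios of 1.37, 1.92 and 1.35 in pht1∆ at 16 °C, with exon log ratios of 0.05, −0.04 and 0.15. Its 3 intron values stood well above its 3 exon values, and the index was 1.495 ± 0.22 (adjusted p = 9.23e-06), a 2.82-fold rise in the intron-to-exon ratio. The mud1 intron, from a gene for a ubiquitin-binding UBA domain protein, had indices of 1.57, 1.27 and 1.36, with a mean of 1.40 ± 0.17 (adjusted p = 9.84e-07). SPAC9E9.06c encodes threonine synthase, which makes threonine from phosphohomoserine, and its intron had indices of 1.89, 1.14 and 1.35 (mean 1.46 ± 0.18, adjusted p = 9.84e-07). In mud1 and SPAC9E9.06c the intron feature rose by 1.29 and 1.28, and the exon features of −0.11 and −0.18 were not called.

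The pcf11 intron belongs to a gene for an mRNA cleavage and polyadenylation factor. It had indices of 1.54, 1.25 and 0.84 in pht1∆ at 16 °C (mean 1.21 ± 0.14, adjusted p = 5.91e-07), on an exon feature of 0.01. The gms1 intron, from the gene for the Golgi UDP-galactose transporter, had indices of 1.18, 1.46 and 1.11, with a mean of 1.25 ± 0.18 (adjusted p = 6.89e-06). The dis2 intron, from a gene for a catalytic subunit of protein phosphatase 1, had indices of 1.28, 0.69 and 1.32, with a mean of 1.10 ± 0.16 (adjusted p = 1.31e-05). The exon features of these 3 genes were not called. That all 9 index values lay above 0 was a condition for naming these introns.

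High indices of 2 further genes differed in kind. The cab5 intron, from the gene for dephospho-CoA kinase of coenzyme A synthesis, had intron log ratios of 2.38, −0.01 and 0.27, so that its mean index of 1.41 ± 0.22 (adjusted p = 2.96e-05) leaned on replicate 1, and its exon feature of −0.53 was called lower. The sgf73 intron, from a gene for a SAGA subunit of the deubiquitinating module, had an index of 1.09 ± 0.18 (adjusted p = 6.39e-05) on exon log ratios of −1.30, −1.30 and −1.22 and an intron feature of −0.18. Its exon feature fell and its intron feature was not called.

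**Figure D3:**
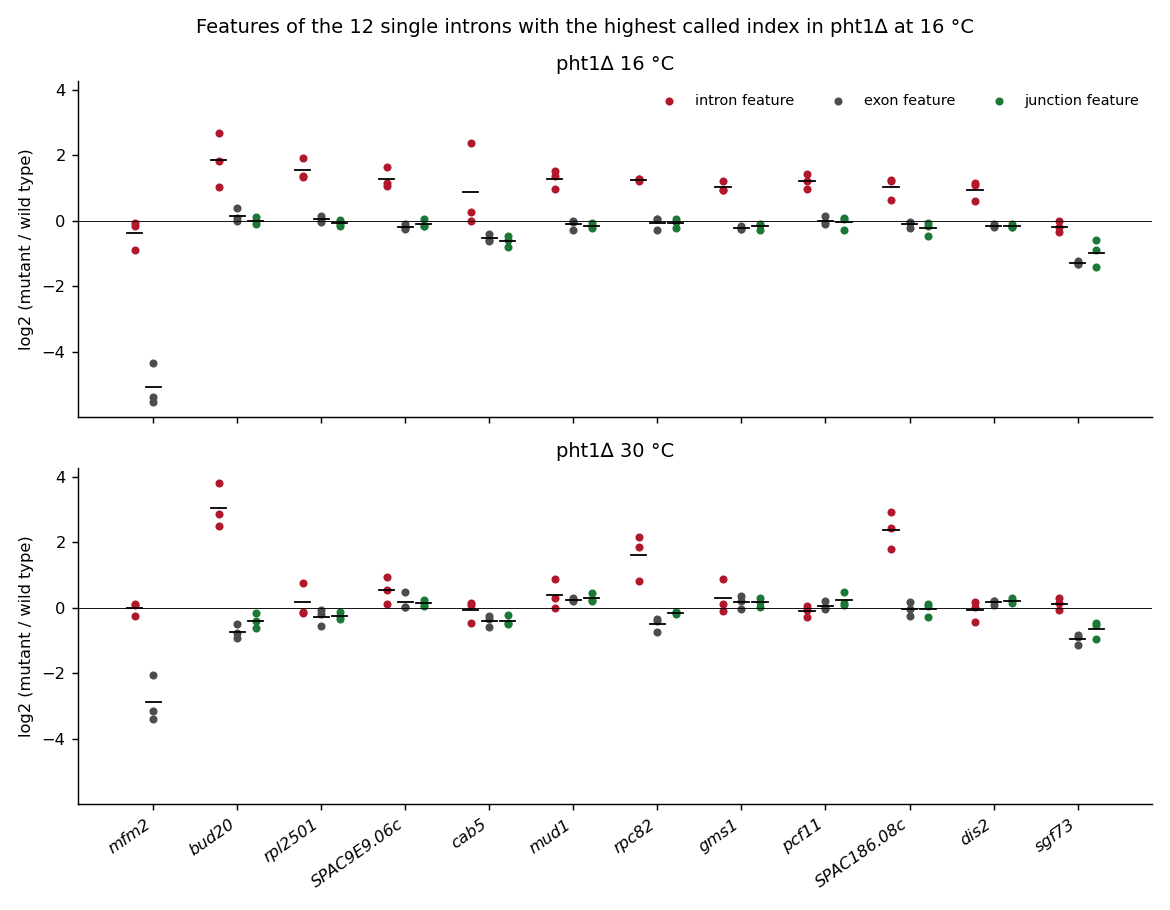
Log2 of mutant over wild type of the intron, exon and junction features on each of 3 arrays, for the 12 single introns with the highest called index in pht1∆ at 16 °C, shown at 16 °C (top) and at 30 °C (bottom). Points are arrays and bars their means; mfm2 has no junction feature. For rpl2501, mud1, pcf11 and dis2 the intron points stand apart from the exon points at 16 °C and overlap or lie close to them at 30 °C.

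The mfm2 gene encodes a precursor of M-factor, the peptide pheromone of M cells. Its index was 4.69 ± 0.25 in pht1∆ at 16 °C (adjusted p = 4.90e-14), with exon log ratios of −5.53, −4.33 and −5.36 and an intron feature of −0.38 that was not called. At 30 °C the index was 2.85 ± 0.25 in pht1∆ and 2.58 ± 0.25 in swr1∆, on exon features of −2.87 and −2.58 and intron features of −0.02 and 0.00. The exon feature of mat1-Mc, the M-specific mating-type regulator whose copies share sequence, was −2.79 in pht1∆ at 16 °C, −2.65 in swr1∆ at 30 °C and −2.85 in pht1∆ at 30 °C. Of 9 measured M-cell markers, which include mfm2, 6, 4 and 4 were called lower in those groups and 1, 0 and 1 higher, over ranges from −5.07 to 0.53, from −2.65 to 0.15 and from −2.87 to 0.56. Of 3 P-cell markers, 1, 2 and 2 were called higher. In pht1∆ usp107DAmP the 9 M-cell markers lay between −0.08 and 0.31 with 0 called, and the mfm2 index was −0.16. Of the 3 P-cell markers in that group, 2 were called lower and 0 higher, over a range from −0.46 to 0.15. The part of the mating-type RNAs in the mfm2 index was not tested, and fewer cells of a type cannot be told apart from less RNA per cell in these bulk cultures.

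Lower indices in pht1∆ at 16 °C were fewer. The intron of SPBPB2B2.05, which encodes a class I glutamine amidotransferase family protein and is annotated without an intron, had indices of −0.11, −1.21 and −1.71 (mean −1.01 ± 0.19, adjusted p = 0.000272). The SPBC2A9.03 intron, from a gene for a WD repeat protein, had an index of −0.89 ± 0.16 (adjusted p = 0.000135) on an exon feature that was 0.97 higher, and against the junction feature it was −0.056 and not called. The introns of gle1, which encodes a nucleoporin, rml2, for a mitochondrial ribosomal protein, and ost2, for an oligosaccharyltransferase subunit, had indices of −0.89, −0.80 and −0.80. These 3 were low mainly on replicate 1, with −2.0, −1.69 and −1.89 there, and without it they were −0.33, −0.35 and −0.26 and no longer called, and ost2 was also not called against the junction feature (−0.66, adjusted p = 0.0822 by limma).

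In pht1∆ at 30 °C, 161 single introns had a higher index and 31 a lower one, or 15.5% and 2.98%, against 14.0% and 3.61% over all introns (17.6% in either direction). Here the higher indices mostly went with lower exon features: the exon feature was called lower in 109 of the 161 and the intron feature higher in 42. The intron feature lay farther from 0 than the exon feature in 49, and the median intron feature was 0.16 and the median exon feature −0.41. With the junction feature as the base, 58 of 154 were also called higher, and among 372 genes with an exon feature within 0.1 of 0 there were 15 higher and 6 lower indices. The 192 calls became 118 without replicate 1 and 122 without replicate 3, and 59 in a fit on the arrays of this group alone.

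Apart from mfm2, the 3 highest indices at 30 °C went with a higher intron feature. The bud20 intron, from a gene for a zinc finger protein of ribosome biogenesis, had indices of 4.30, 3.43 and 3.62 in pht1∆ at 30 °C. Its mean of 3.78 ± 0.25 (adjusted p = 7.71e-12) is a 13.8-fold rise in the intron-to-exon ratio, with intron log ratios of 3.80, 2.50 and 2.86 and exon log ratios of −0.50, −0.93 and −0.76. The intron of SPAC186.08c, encoding L-lactate dehydrogenase, had indices of 3.18, 1.61 and 2.46 (mean 2.42 ± 0.20, adjusted p = 1.06e-09) on an exon feature of −0.03. The rpc82 intron, from a gene for an RNA polymerase III subunit, had indices of 2.50, 1.55 and 2.23 (mean 2.10 ± 0.15, adjusted p = 8.95e-11). That every array showed the intron feature above the exon feature was a condition for naming these 3 genes.

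The tad3 intron, from a gene for a subunit of the tRNA adenosine deaminase, was also high through the intron feature, with indices of 1.53, 0.61 and 1.05 and a called intron feature of 0.80. The rsc58 and atp15 introns, from genes for a subunit of the RSC chromatin remodeller and the epsilon subunit of the mitochondrial ATP synthase, had indices of 1.10 ± 0.195 and 1.08 ± 0.18, with the intron feature called higher and the exon feature called lower in both. In 6 others of the 12 highest, the exon feature was called lower and the intron feature was not called higher. They were mfm2, sgf73, rpl3703 and rps2802 for ribosomal proteins, pct1 for the RNA 5′-triphosphatase of mRNA capping, and acb1 for an acyl-CoA binding protein, with indices of 1.05 to 2.85 and exon features of −2.87 to −0.86. The rps2802 index was 0.37 against the junction feature and not called.

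Among the lowest, the hpz1 index was −1.63 ± 0.15 in pht1∆ at 30 °C, −1.75 ± 0.15 in swr1∆ at 30 °C and −1.14 ± 0.15 in pht1∆ at 16 °C, on exon features of 1.79, 1.85 and 1.32 and intron features of 0.16, 0.10 and 0.18. Against the junction feature the hpz1 index turned to 0.75, 0.15 and 0.37, and the gene, for a zinc finger protein implicated in DNA repair, is annotated with 3 coding introns. The introns of SPAC694.03, for a nicotinamide-nucleotide adenylyltransferase, taf7, for a TFIID subunit, and rps3, for a small-subunit ribosomal protein, had lower intron features of −0.75, −0.97 and −0.79 on exon features of 0.05, 0.01 and −0.04. Their indices were −0.81 ± 0.14 (adjusted p = 0.000148), −0.99 ± 0.21 (adjusted p = 0.00154) and −0.75 ± 0.18 (adjusted p = 0.00513). Without replicate 1, taf7 and rps3 were −0.66 and −0.60 and were not called.
The other 2 of the 6 lowest called indices at 30 °C were mrx11 at −0.69, on a higher exon feature of 0.60, and ost2 at −0.68, which was not called without replicate 1 or replicate 2 (−0.48 and −0.76). Neither was called against the junction feature, with mrx11 at −0.00011 and ost2 at −0.16.

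The temperature comparison within pht1∆ set indices at 16 °C against those at 30 °C. Of the single introns, 90 were higher and 45 lower at 16 °C, against 6.68% and 3.26% over all introns (9.94% in either direction). The intron feature was itself called higher in 71 of the 90 and moved more than the exon feature in 81. The pcf11 index was 1.54, 1.25 and 0.84 at 16 °C, against −0.29, 0.08 and −0.27 at 30 °C, a difference of 1.37 ± 0.20 (adjusted p = 0.000131). For dis2 the values were 1.28, 0.69 and 1.32 at 16 °C, against −0.03, −0.51 and −0.18 at 30 °C, a difference of 1.34 ± 0.23 (adjusted p = 0.000687). The arrays of the 2 temperatures did not overlap in either gene, which the rule for naming genes of a difference required.

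The rpl2302 index, from a gene for a 60S ribosomal protein, was 1.37 ± 0.34 higher at 16 °C (adjusted p = 0.0106), on an intron feature 1.61 higher. Its call was lost without pht1∆ 30 °C replicate 2 (1.203, adjusted p = 0.0519). The order was the other way for bud20, with 2.68, 0.97 and 1.42 at 16 °C, against 4.30, 3.43 and 3.62 at 30 °C, a difference of −2.09 ± 0.35 (adjusted p = 0.0005). SPAC186.08c also had the lower index at 16 °C, with a difference of −1.28 ± 0.28 (adjusted p = 0.00512) and an intron feature 1.34 lower. For rpl3703 the difference of −1.17 ± 0.24 (adjusted p = 0.00321) lay in the exon feature, which was 1.17 higher at 16 °C, and the intron feature differed by 0.00. The 135 calls were 60 without pht1∆ 16 °C replicate 1, and 84 and 80 without pht1∆ 30 °C replicates 1 and 2.

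**Figure D4:**
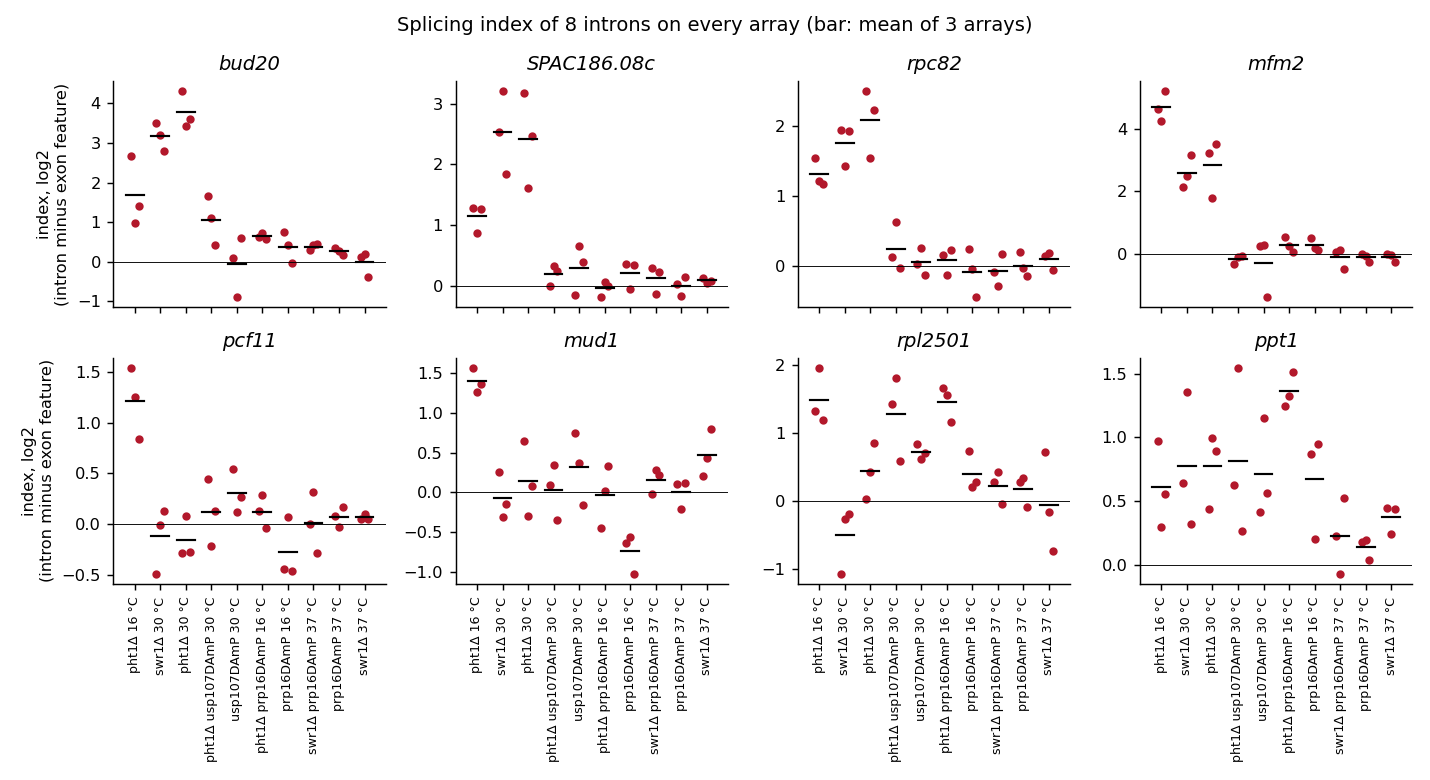
Splicing index (log2, intron minus exon feature) of 8 single introns on all 30 arrays, with a bar at the mean of 3 arrays; the vertical scale differs between panels. The bud20, SPAC186.08c and rpc82 introns are high in pht1∆ at 16 °C and 30 °C and in swr1∆ at 30 °C, pcf11 in pht1∆ at 16 °C, and ppt1 lies above 0 on 29 of 30 arrays.

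In swr1∆ at 30 °C, 57 single introns had a higher index and 21 a lower one, against 4.56% and 1.74% over all introns (6.31% in either direction). With junction features as base, 17 of the 51 higher introns that have one were also called higher. Besides mfm2, which ranked second at 2.58 through its exon, the highest indices were those of bud20 (3.51, 3.21 and 2.79; mean 3.17 ± 0.25, adjusted p = 5.39e-10), SPAC186.08c (2.54, 3.20 and 1.84; mean 2.53 ± 0.20, adjusted p = 5.39e-10) and rpc82 (1.95, 1.43 and 1.93; mean 1.77 ± 0.15, adjusted p = 2.93e-09). All 9 of these values exceeded 1, and the intron features of 2.70, 2.31 and 1.33 were called higher. The tad3 index was 1.66, 0.70 and 0.60 (mean 0.98 ± 0.15, adjusted p = 0.000162). The bet5 and epr1 introns, from genes for a TRAPP vesicle-tethering subunit and an ATPase co-chaperone, had indices of −0.79 and −0.77 on exon features 0.64 and 0.77 higher. Neither call held without replicate 2 (−0.49 and −0.55), and epr1 also lost its call without replicate 1 (−0.83). With the junction feature as base they were −0.17 and −0.079 and not called. The 78 calls were 11 when replicate 1 was left out, 21 for replicate 2 and 128 for replicate 3. Leaving out both arrays with many repeated values, a choice made after seeing the data, gave 15. A fit on the arrays of swr1∆ at 30 °C alone gave 5.

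Between swr1∆ and pht1∆ at 30 °C, 0 single introns were higher and 3 lower in swr1∆, against 0.0207% and 0.249% over all introns (0.27% in either direction). The SPAC227.19c intron, of an uncharacterized protein, had indices of −0.21, −0.10 and −0.19 in swr1∆, against 0.76, 0.74 and 0.84 in pht1∆, a difference of −0.94 ± 0.17 (adjusted p = 0.00821). The gab1 intron, from a gene for a subunit of the GPI transamidase, had −0.64, −0.05 and −0.21 in swr1∆, against 0.34, 0.85 and 0.97 in pht1∆ (−1.02 ± 0.21, adjusted p = 0.0292). The groups did not overlap in either gene, which the rule for naming required. The third, mpp6, for an RNA-binding protein of the nuclear exosome, was chosen after its values were seen, with 0.47, −0.11 and −0.20 in swr1∆, against 1.14, 0.32 and 1.49 in pht1∆, and the groups overlapped. With replicate number as a block, which paired these arrays, 11 single introns were called, 4 higher and 7 lower. The count was 0 without pht1∆ replicate 3, 7 and 14 without pht1∆ replicates 1 and 2, and 6 without swr1∆ replicate 3. The gab1 call was also lost without swr1∆ replicate 1 (−0.85, adjusted p = 0.109 by limma). Against the junction feature SPAC227.19c turned to 0.10 and gab1 was −1.09 (adjusted p = 0.0555 by limma), and 0 single introns were called. Leaving out both arrays with many repeated values gave 2 calls, of which 0 were among these 3.

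In usp107DAmP at 30 °C, 142 single introns had a higher index and 23 a lower one, against 11.6% and 2.68% over all introns (14.2% in either direction), and the intron feature was called higher in 35 of the 142 and the exon feature lower in 67. Of 135 with a junction feature, 55 were also called higher against it. A fit on the arrays of usp107DAmP alone called 0 single introns, in place of 165. The 5 highest indices were close together, at 0.87 to 0.89. The tcb1 intron, from a gene for a tricalbin that tethers the endoplasmic reticulum to the plasma membrane, had indices of 1.07, 0.52 and 1.06 (mean 0.89 ± 0.18, adjusted p = 0.00187), and bun107, for a WD repeat protein, had 0.94, 0.64 and 1.04 (mean 0.87 ± 0.17, adjusted p = 0.00198). Both had a called higher intron feature, of 0.77 and 0.65. The smf1 intron, from the gene for an Sm core protein of the spliceosome, had 0.16, 0.77 and 1.73 and lost its call without replicate 2 or 3 and against the junction feature (0.74). At the low end, snu13, for a protein of the U3 snoRNP and the U4/U6 snRNP, pos1 and rpp202, for a ribosomal stalk protein, had indices of −0.90, −0.87 and −0.82 on exon features 0.64, 0.65 and 0.49 higher, and pos1 was −0.11 and not called against the junction feature. The 165 calls were 76 without replicate 1 and 34 without replicate 2, and the call of elo2 at 0.89 was lost without replicate 2 or 3 and against the junction feature (0.37), as was that of rps1802 at 0.88 without replicate 2 (0.76).

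In pht1∆ usp107DAmP at 30 °C, 290 single introns had a higher index and 57 a lower one, or 27.9% and 5.49%, against 25.1% and 5.48% over all introns (30.6% in either direction). The exon feature was called lower in 191 of the 290 and the intron feature higher in 83, and 168 of 277 were also higher against the junction feature. The elo2 intron, for a fatty acid elongase family protein, had an index of 1.32 ± 0.25 (adjusted p = 0.000222). The rpl2501 intron had indices of 1.43, 1.81 and 0.59 (mean 1.28 ± 0.22, adjusted p = 7.95e-05), and its intron feature of 1.05 was called. The rpc1 intron, for the largest RNA polymerase III subunit, had 1.36, 1.70 and 0.73 (mean 1.26 ± 0.15, adjusted p = 4.05e-06), with an intron feature 0.61 higher and an exon feature 0.65 lower. The lowest indices were those of tum1, a thiosulfate sulfurtransferase, meu32 and erg10, an acetyl-CoA acetyltransferase of the sterol pathway, at −1.01, −0.87 and −0.86. Without replicate 2 there were 137 calls in place of 347, and meu32 was no longer called (−0.57, adjusted p = 0.0501). Nor was meu32 called against the junction feature (−0.16). A fit on the arrays of pht1∆ usp107DAmP alone gave 28 calls.

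Set against usp107DAmP, pht1∆ usp107DAmP had 2 single introns with a higher index and 0 with a lower one, against 0.207% and 0.0415% over all introns. The kri1 intron, for a krr family protein, had indices of 0.77, 1.01 and 0.68 in pht1∆ usp107DAmP, against −0.25, −0.12 and 0.16 in usp107DAmP (0.89 ± 0.19, adjusted p = 0.0385). The orc1 intron, for a subunit of the origin recognition complex, had 0.51, 0.67 and 0.56 in pht1∆ usp107DAmP, against −0.15, −0.0019 and −0.12 in usp107DAmP (0.67 ± 0.15, adjusted p = 0.0385). The arrays did not overlap in either gene, as the rule for naming required. Against the junction feature they were 0.70 and 0.63 and not called. With the replicate block, which paired these arrays, 8 were called and all were higher. Without pht1∆ usp107DAmP replicate 3 there were 37 calls, and 0 or 1 without any other array.

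In prp16DAmP at 16 °C, 143 single introns had a higher index and 40 a lower one, or 13.8% and 3.85%, against 14.1% and 3.48% over all introns (17.6% in either direction). The exon feature was called lower in 75 of the 143 and the intron feature higher in 31, and against the junction feature 41 of 137 were also called higher. The rps1901 intron, for a small-subunit ribosomal protein, had indices of 1.32, 0.91 and 1.21 (mean 1.15 ± 0.14, adjusted p = 1.72e-05), and pmm1, for phosphomannomutase of mannose activation, had 1.39, 0.96 and 1.16 (mean 1.17 ± 0.17, adjusted p = 6.08e-05). SPCC1183.02, for a glutathione S-transferase, had an index of 1.12 ± 0.13, and rps2802 and rps1702 had 1.48 ± 0.26 and 1.15 ± 0.24. All 5 had an exon feature called lower, between −0.99 and −0.69, and of these introns only rps1901 had an intron feature called higher, at 0.46. The calls of rps2802 and rps1702 were lost without replicate 1 (0.80 and 0.81). The dcp1, blt1 and mud1 indices were −0.85, −0.78 and −0.74, and dcp1, for the decapping complex, and mud1 lay on exon features 0.81 and 0.55 higher. The dcp1 call was lost without replicate 1 (−0.71) and the mud1 call without replicate 3 (−0.60), and against the junction feature they turned to 0.21 and 0.047 and were not called. The 183 calls were 22 without replicate 1 and 120 without replicate 3.

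In pht1∆ prp16DAmP at 16 °C, 147 single introns had a higher index and 33 a lower one, against 14.5% and 3.09% over all introns (17.6% in either direction). Of 139 higher introns with a junction feature, 38 were also called higher against it. The rpl2501 index was 1.67, 1.57 and 1.16 (mean 1.47 ± 0.22, adjusted p = 4.13e-05), here on an exon feature 0.94 lower, and it was 0.75 against the junction feature (adjusted p = 0.0518 by limma). The rps1002 intron, for a small-subunit ribosomal protein, had 1.48, 1.71 and 1.06 (mean 1.41 ± 0.18, adjusted p = 1.25e-05), with an intron feature 0.66 higher. The lowest were wbp4, for a WW domain protein of the splicing machinery, at −0.98 ± 0.16, bet5 at −0.75 and usp108, for a U1 snRNP protein, at −0.73, and usp108 was −0.42 and not called without replicate 1. Against the junction feature wbp4, bet5 and usp108 were −0.55, −0.37 and 0.035 and not called. The 180 calls were 39 without replicate 1 and 83 without replicate 2. Against prp16DAmP at 16 °C, limma called 0 single introns, against 0.0% higher and 0.0415% lower over all introns, with 8.28% at an unadjusted p under 0.05.

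At 37 °C few indices were called. In swr1∆, limma called 0 single introns, against 0.0% over all introns, with 10.5% at an unadjusted p under 0.05. In swr1∆ prp16DAmP limma called 0 single introns, against 0.166% higher and 0.0415% lower over all introns, with 14.7% at an unadjusted p under 0.05. In prp16DAmP limma called 1 single intron lower and 0 higher, against 0.0207% and 0.0415% over all introns (0.0622% in either direction). It was that of SPAC1F12.06c, for a DNA repair endonuclease, with indices of −1.96, −1.17 and −1.37 (mean −1.50 ± 0.25, adjusted p = 0.00341) on exon log ratios of 1.89, 1.23 and 1.24 and an intron feature of −0.05. Without replicate 1 or 3 the call was lost, and against the junction feature the index was −0.17 and not called. The SD over all features was 0.131 to 0.214 on the 37 °C arrays and 0.201 to 0.464 on the others. With arrays scaled to equal spread 123, 109 and 32 single introns were called in swr1∆, prp16DAmP and swr1∆ prp16DAmP. Fits on the arrays of each of these groups alone called 85, 63 and 0 in that order. The shares over all introns under these settings are not given here, so these counts do not set single introns apart from other introns. The difference of swr1∆ prp16DAmP from prp16DAmP at 37 °C had 0 limma calls, against 0.0% over all introns, with 3.08% at an unadjusted p under 0.05.

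The ppt1 intron was called higher in 7 of 10 groups, more than any other single intron. The gene, for the para-hydroxybenzoate polyprenyltransferase of ubiquinone synthesis, is annotated without a coding intron, so that its intron could not be placed. Its index was 0.61 in pht1∆ at 16 °C, 0.77 in swr1∆ and 0.78 in pht1∆ at 30 °C, 0.81 in pht1∆ usp107DAmP and 0.71 in usp107DAmP, 1.36 in pht1∆ prp16DAmP and 0.67 in prp16DAmP at 16 °C. At 37 °C it was 0.23 in swr1∆ prp16DAmP, 0.14 in prp16DAmP and 0.37 in swr1∆. The intron feature was called higher in 6 of the 7 groups, all except pht1∆ at 16 °C. Wild-type RNA is the base of every group, so these calls are not independent of each other. Cy5 marked the mutant RNA on every array, so a dye effect would also be shared, and its part was not tested. The median index over all introns was itself above 0 in every group, from 0.029 in swr1∆ at 37 °C to 0.14 in pht1∆ usp107DAmP.

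A further 15 introns reached 5 groups with a higher index. They were ranked by the mean size of the index over the 10 groups, with its sign ignored. The 8 largest by that measure were those of sdh1 for succinate dehydrogenase, SPAC9.02c, rpl3601, SPBC9B6.11c, clp1 for the Cdc14-family phosphatase, pol1 for DNA polymerase alpha, the GTPase gene ras1, and lsm7 for a U6 snRNP protein. The sdh1 index was 1.06 in pht1∆ at 16 °C, 0.88 in swr1∆ and 0.996 in pht1∆ at 30 °C, 0.69 in pht1∆ usp107DAmP and 0.81 in usp107DAmP. The ras1 index was called in the same groups, at 0.67, 0.97, 0.81, 0.53 and 0.38 in that order. By contrast, clp1 and SPBC9B6.11c were called in both prp16DAmP groups at 16 °C and had indices of −0.34 and −0.32 in pht1∆ at 30 °C that were not called. The epr1 index was lower in 5 groups, at −0.64 in pht1∆ at 16 °C, −0.77 in swr1∆ and −0.58 in pht1∆ at 30 °C, and −0.79 and −0.69 in pht1∆ usp107DAmP and usp107DAmP.

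Genes for cytosolic ribosomal proteins supplied 57 single introns. Of these, 16 were higher and 1 lower in pht1∆ at 16 °C, or 28.1% and 1.75%, against 21.9% and 3.88% over all introns, with an intron feature called higher in 21 and an exon feature called lower in 1. In prp16DAmP at 16 °C 29 were higher and 0 lower, or 50.9% and 0.0%, against 14.1% and 3.48% over all introns. The exon feature was called lower in 30 and the intron feature higher in 4, and the median index was 0.41, against 0.11 over all introns. In pht1∆ prp16DAmP 21 were higher and 1 lower, or 36.8% and 1.75%, against 14.5% and 3.09% over all introns, and the exon feature was called lower in 26. In pht1∆ at 30 °C 13 were higher and 3 lower, or 22.8% and 5.26%, against 14.0% and 3.61%, and the exon feature was called lower in 31. The rpl4101 intron, for the small L41 protein, was at 0.98 in pht1∆ at 16 °C and 0.79 at 30 °C, and rpl2302 at 0.96 and −0.41, the last not called. Ribosomal protein genes occur in near-identical copies, and features of paralogs may share signal. The counts of exon and intron features called were not set against those of all genes. They do not show whether lower exon features were particular to ribosomal protein genes.

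The other groups were smaller, and their counts are to be read against the shares called over all introns. These were 21.9% higher and 3.88% lower in pht1∆ at 16 °C, 14.0% and 3.61% in pht1∆ at 30 °C, 25.1% and 5.48% in pht1∆ usp107DAmP, and 14.1% and 3.48% in prp16DAmP at 16 °C. Of 21 introns of ribosome assembly genes, 6 were higher in pht1∆ at 16 °C, 5 in pht1∆ at 30 °C and 11 in pht1∆ usp107DAmP, with 0 lower in each, or 28.6%, 23.8% and 52.4% higher. The nog2 and rlp7 introns, for an export GTPase and a ribosome assembly protein, had indices of 0.58 and 0.34 at 16 °C. Of 8 introns of RNA polymerase subunit genes, 3, 4 and 6 were higher in those groups and 0, 1 and 0 lower, or 37.5%, 50.0% and 75.0% higher, with rpc34 at 0.90 in pht1∆ usp107DAmP and rpb6 at 0.62 in pht1∆ at 16 °C. Of 21 introns of splicing factor genes, 1 was higher and 2 lower in pht1∆ at 16 °C, 4 and 0 in pht1∆ at 30 °C, and 6 and 0 in pht1∆ usp107DAmP, or 4.76%, 19.0% and 28.6% higher. In prp16DAmP at 16 °C the prp18 intron, for a U5 snRNP-associated protein, had indices of 1.80, −0.07 and 0.22 and a mean of 0.65 that was called, and it was high on replicate 1 alone.

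Of 17 introns of respiratory chain and ATP synthase genes, 5 were higher and 0 lower in pht1∆ at 16 °C, and 7 and 1 in pht1∆ usp107DAmP, or 29.4% and 41.2% higher, against 21.9% and 25.1% over all introns, with cox9, for a cytochrome c oxidase subunit, at 0.54 and 0.57. Of 11 introns of proteasome and ubiquitin genes, 4 were higher (36.4%) and 0 lower in pht1∆ at 16 °C, and 0 and 0 at 30 °C, and rpn9, rpt4 and rpn2, for proteasome regulatory subunits, had 0.89, 0.48 and 0.44 at 16 °C, against −0.08, −0.35 and 0.24 at 30 °C. Of 15 introns of mitochondrial ribosomal protein genes, 3 were higher and 1 lower in pht1∆ at 16 °C, with mrp5 at 0.53 and mrp11 at 0.46. Of 21 introns of small GTPase and vesicle traffic genes, 3 were higher (14.3%) and 2 lower in pht1∆ at 16 °C, with ypt4 at 0.83. Of 33 introns of genes with symbols used for mating and meiosis, 6 were higher (18.2%) and 2 lower in pht1∆ at 16 °C, with mug121 at 0.81. One of the 6, mam33 at 0.54, is of a family of mitochondrial matrix proteins and matched by symbol alone, and without it, a choice made after seeing the data, 5 of 32 were higher. In pht1∆ usp107DAmP 3 of the 33 were higher and 8 lower, or 9.09% and 24.2%, against 25.1% and 5.48% over all introns. The median index of these 8 lists in pht1∆ at 16 °C was between −0.0017 and 0.23, against 0.11 over all introns.

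Single introns were then set against the introns of genes with more than 1. The median index of the single introns minus that of the other 3782 was 0.045, 0.054 and 0.068 on the arrays of pht1∆ at 16 °C, all above 0, with a mean of 0.056 ± 0.012 (SD). It was 0.025 ± 0.0075 (SD) in pht1∆ at 30 °C, −0.011 in swr1∆ at 30 °C, 0.053 in pht1∆ usp107DAmP, 0.0096 in usp107DAmP, 0.014 in pht1∆ prp16DAmP and −0.014 in prp16DAmP at 16 °C. All arrays of pht1∆ at 30 °C, usp107DAmP, pht1∆ usp107DAmP and pht1∆ prp16DAmP also lay above 0. Over the 10 group means the difference averaged 0.012 ± 0.026 (SD) and was above 0 in 6. An exact two-sided sign-flip permutation test did not separate it from 0 (p = 0.219, 0.292 adjusted over 4 measures). That test takes the 10 means as independent, although the groups share genotypes and may share wild-type RNA. The same limit holds for each sign-flip p below. Between pht1∆ at 16 °C and 30 °C the difference was 0.031 (exact permutation p = 0.1, the smallest that 3 against 3 arrays allow; adjusted p = 0.2). The share called higher in pht1∆ at 16 °C was 27.5% of single introns, 21.98% of the 1265 first introns and 20.3% of all introns in genes with more than 1.

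**Figure D5:**
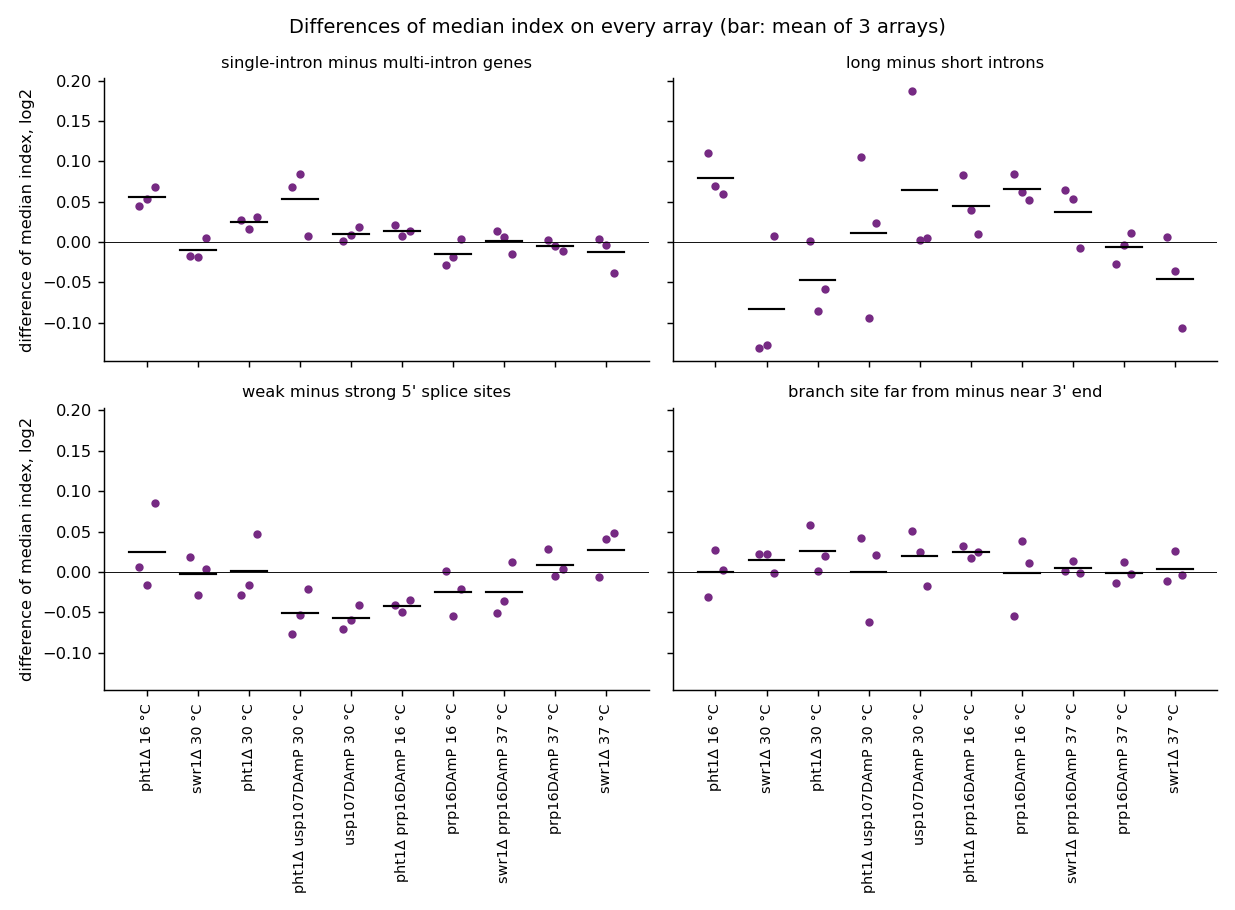
Differences of the median index on each of 30 arrays (log2), with a bar at the mean of 3 arrays: single-intron against multi-intron genes, and among single introns long against short, weak against strong 5′ splice sites, and branch sites far from against near the 3′ end. The single-minus-multi points all lie above 0 in pht1∆ at 16 °C and at 30 °C, usp107DAmP, pht1∆ usp107DAmP and pht1∆ prp16DAmP. The weak-minus-strong points all lie below 0 in usp107DAmP, pht1∆ usp107DAmP and pht1∆ prp16DAmP. The long-minus-short points all lie above 0 in every group at 16 °C and in usp107DAmP.

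Among the placed single introns, the 318 longest (upper tertile) were set against the 329 shortest of at most 55 bases. In pht1∆ at 16 °C the median index of the long introns exceeded that of the short ones by 0.11, 0.069 and 0.060 on the 3 arrays, against 0.0012, −0.086 and −0.058 at 30 °C. The means were 0.080 ± 0.027 and −0.047 ± 0.044 (SD), and the arrays did not overlap (exact permutation p = 0.1, the smallest possible; adjusted p = 0.2). The median intron feature of the long introns was 0.21 at 16 °C and that of the short ones 0.066. The long-minus-short difference was also above 0 on every array of prp16DAmP at 16 °C, at 0.084, 0.062 and 0.052. In pht1∆ prp16DAmP it was 0.083, 0.039 and 0.010, and in usp107DAmP 0.19, 0.0020 and 0.0048. Group means were above 0 in 6 of the 10 groups and lowest in swr1∆ at 30 °C, at −0.084. Over the 10 groups, which share genotypes, the difference averaged 0.012 and was not separated from 0 (exact sign-flip permutation p = 0.508).

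The title of the series names weak introns, and single introns were compared by the strength of the 5′ splice site, scored as the fit of the first 6 bases to all annotated coding introns. The weakest tertile had 343 introns and the strongest, all with GTAAGT, 335. In pht1∆ at 16 °C 28.6% of the weak and 26.6% of the strong sites had a higher index, and the median difference of weak minus strong was 0.0057, −0.017 and 0.085 on the 3 arrays, which lie on both sides of 0. In usp107DAmP the difference was −0.071, −0.059 and −0.041. In pht1∆ usp107DAmP it was −0.077, −0.053 and −0.022, and in pht1∆ prp16DAmP −0.042, −0.050 and −0.035. The strong sites had the higher median index on every array of these groups. Over the 10 groups, which share genotypes, the difference averaged −0.014 (exact sign-flip permutation p = 0.195, adjusted p = 0.292). In prp16DAmP at 16 °C 10.4% of introns with sites other than GTAAGT and GTATGT had a higher index, against 17.3% with GTAAGT and 16.2% with GTATGT, a description without a test.

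The 434 introns with at least 12 bases after the branch A had a median index 0.0089 above that of the 370 with at most 10 bases, averaged over the 10 groups (exact sign-flip permutation p = 0.0332, adjusted p = 0.133). By means in place of medians the difference was 0.0169, and the exact sign-flip adjusted p was 0.0312. Both tests take the 10 group means as independent, although groups share genotypes and may share wild-type RNA. The difference was −0.00074 ± 0.029 (SD) in pht1∆ at 16 °C. In that group 28.1% of the 755 introns with an exact branch word were higher, against 27.8% of the 198 with a mismatch. By the place of the exon feature, 226 of 788 introns with the feature in exon 2 were higher, or 28.7%, and 57 of 247 with it in exon 1, or 23.1%, and the median index was 0.17 ± 0.021 and 0.092 ± 0.029 (SD). The part of the probe's place in these indices was not tested.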

How the data were processed

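The deposited values are log ratios of mutant (Cy5) over wild-type (Cy3) RNA per exon, intron or junction feature, normalised by the authors and read here as log2, with the direction from the dyes in the labels. No source used here gives the normalisation, the probe averaging or the log base. The 1039 members, the 9 gene lists and the tests were chosen with earlier results of these data known, and the lists support nothing by themselves. Indices were fitted in R 4.3.3 with limma 3.58.1 (lmFit and eBayes, 1 mean per group, all 30 arrays), with Benjamini-Hochberg adjustment over 4821 introns at 0.05 and no filter. The fit against 0 leaves out the spread of wild-type cultures and any dye effect. Scripts were tested on simulated data. Genes were matched by locus tag (984) or synonym (46) to the RefSeq annotation of ASM294v3, which placed 953 introns, and sequences are RefSeq's.

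The genes named were the 12 highest and 6 lowest called indices in each pht1∆ group, the 5 highest and 3 lowest in the others, all with 3 arrays of the same sign. Also eligible were the 4 highest and 3 lowest per difference without overlap, the 10 introns called in the most groups, and 3 per list. Same-numbered arrays paired, from the replicate numbers in the labels and deviations correlating above 0.1 in every pair, for swr1∆ and pht1∆ at 30 °C (lowest r 0.101), for pht1∆ usp107DAmP and usp107DAmP (0.424) and for pht1∆ prp16DAmP and prp16DAmP at 16 °C (0.184). The number of arrays limits the precision. Alternatives were the junction feature as base, arrays scaled to equal spread, fits on the compared arrays alone, repeated values left out, the replicate block, and each array left out.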

Additional observations from a re-analysis of the deposited data

Results flagged for a closer look

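A test of the difference between groups called 135 single introns between pht1∆ at 16 °C and pht1∆ at 30 °C, 90 of them higher and 45 lower at 16 °C. The same test called 3 between swr1∆ and pht1∆ at 30 °C, those of SPAC227.19c, gab1 and mpp6, all lower in swr1∆. It called 2 between pht1∆ usp107DAmP and usp107DAmP, those of kri1 and orc1, both higher in pht1∆ usp107DAmP. The cause of these differences was not tested.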

How the results depend on the processing

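The counts of calls below are of single introns, without the share over all introns under the same setting. With the junction feature as base, called single introns numbered 47 in swr1∆ at 30 °C and 113 in prp16DAmP at 16 °C. At 37 °C they were 1 in swr1∆, 0 in prp16DAmP and 3 in swr1∆ prp16DAmP, and the differences gave 0 for swr1∆ minus pht1∆ and 1 for pht1∆ usp107DAmP minus usp107DAmP. That base also turned 8 of 81 named indices: SPAC227.19c (0.10) in swr1∆ minus pht1∆, dcp1 (0.21) and mud1 (0.047) in prp16DAmP and pmm1 (−0.18) and usp108 (0.035) in pht1∆ prp16DAmP at 16 °C, and hpz1 in pht1∆ at 16 °C (0.37), in swr1∆ (0.15) and in pht1∆ at 30 °C (0.75). Another 20 kept direction but lost the call, and 53 kept both. Of 88 named indices, 82 kept direction and call with arrays scaled to equal spread and 71 in fits on the compared arrays alone, and the rest kept direction. With arrays scaled to equal spread there were 90 calls in pht1∆ at 30 °C, 126 in pht1∆ usp107DAmP, 112 in prp16DAmP at 16 °C, 123, 109 and 32 in swr1∆, prp16DAmP and swr1∆ prp16DAmP at 37 °C, 56 for pht1∆ at 16 °C minus 30 °C, 0 for swr1∆ minus pht1∆, 0 for pht1∆ usp107DAmP minus usp107DAmP and 1 for swr1∆ prp16DAmP minus prp16DAmP. Fits on the compared arrays alone hold fewer arrays and take the spread from those arrays only. They gave 59 in pht1∆, 5 in swr1∆, 0 in usp107DAmP and 28 in pht1∆ usp107DAmP at 30 °C. They also gave 97 in prp16DAmP at 16 °C, and 85 and 63 in swr1∆ and prp16DAmP at 37 °C. For differences they gave 38 for pht1∆ at 16 °C minus 30 °C, and 0 for both swr1∆ minus pht1∆ and pht1∆ usp107DAmP minus usp107DAmP. Leaving out repeated intron values gave 5 for swr1∆ minus pht1∆. Leaving out both arrays with many repeated values, chosen after seeing the data, gave 15 in swr1∆ at 30 °C. With the replicate block, called counts were 11 for swr1∆ minus pht1∆, 8 for pht1∆ usp107DAmP minus usp107DAmP, and 1 and 2 in swr1∆ and swr1∆ prp16DAmP at 37 °C, where numbers did not pair arrays, and the block changed no other call among the 88 named indices. The far-minus-near branch difference by means was 0.0169 (exact sign-flip permutation, adjusted p = 0.0312), with group means that share genotypes taken as independent. The cause was not tested.

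Leaving out 1 array at a time gave 171 to 285 calls in pht1∆ at 16 °C, 118 to 158 in pht1∆, 11 to 128 in swr1∆, 34 to 166 in usp107DAmP and 137 to 378 in pht1∆ usp107DAmP at 30 °C, 22 to 122 in prp16DAmP and 39 to 130 in pht1∆ prp16DAmP at 16 °C. At 37 °C the ranges were 0 to 2 in swr1∆, 0 to 1 in prp16DAmP and 0 to 9 in swr1∆ prp16DAmP. For differences they were 60 to 135 for pht1∆ at 16 °C minus 30 °C, 0 to 14 for swr1∆ minus pht1∆, 0 to 37 for pht1∆ usp107DAmP minus usp107DAmP, 0 to 4 for pht1∆ prp16DAmP minus prp16DAmP and 0 to 1 for swr1∆ prp16DAmP minus prp16DAmP. Of 297 named indices with an array left out, 260 kept direction and call and 37 kept direction but not the call.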
